A study of Mus musculus with 8 samples.

Results

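The transcription factors that drive adipocyte differentiation were followed in 3T3-L1 adipocytes given A66, palmitate, or both. The 10 genes were chosen by name as known adipogenic regulators, namely Pparg, Cebpa, Cebpb, Cebpd, Rxra, Klf15, Klf5, Ebf1, Zfp423 and Stat5a, among 43629 genes in the deposited count table, and each was found once. Earlier results of these data were known at that choice, so shares of all genes set beside counts of the 10 are a description. These cells come from a mouse pre-adipocyte line that fills with fat droplets once induced. All 8 cultures shared an induction mixture of 1 µM insulin, 1 µM dexamethasone (a glucocorticoid), 0.5 mM isobutylmethylxanthine and 1 µM rosiglitazone, itself an agonist of PPARγ, and on day 8 they were treated for 24 h. By the methods of the study, the components of this mixture had been left out of the medium before day 8. The 4 groups of 2 cultures were untreated, A66 alone at 2 µM, palmitate alone at 0.5 mM bound to bovine serum albumin (BSA) at a molar ratio of 3 to 1, and palmitate with A66 at those doses. A66 inhibits p110α, a catalytic subunit of PI3K in the insulin pathway. Palmitate is a saturated fatty acid. The methods of the study give 1 µM A66 against DMSO vehicle, the sample labels name the control untreated, and no BSA control is named. A66 acts on an enzyme and not on a transcript, so the counts hold no direct check of the group labels, and every direction below rests on them.

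PPARγ (Pparg) is the nuclear receptor required for adipocytes to form and to stay adipocytes, and it binds DNA as a heterodimer with RXRα (Rxra). C/EBPβ and C/EBPδ (Cebpb, Cebpd) act early after induction and switch on Pparg and Cebpa, after which PPARγ and C/EBPα sustain each other and the genes of lipid storage. Zfp423 and Ebf1 commit precursor cells to the lineage, the zinc finger factors KLF5 and KLF15 act in the early and the late phase, and STAT5A relays growth hormone and prolactin signals.

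Each library held between 42247091 and 57529803 counts, and the smallest detectable amount, taken as 3 counts in a library, lay between 0.0521 and 0.0710 on the CPM scale (counts scaled by library total). This floor allows for counting error alone. All 8 adipocyte markers checked, such as Adipoq and Plin1, were above that floor. Of 12 pre-adipocyte and fibroblast markers, only Dlk1 was under the floor in every library. Under it in every library were also 4 of 6 brown adipocyte markers (Ucp1, Dio2, Zic1 and Tmem26). So were 2 of 6 macrophage markers (Adgre1 and Ptprc) and 2 of 4 endothelial markers (Cdh5 and Kdr). The 12 pre-adipocyte and fibroblast markers summed to 7631 to 8060 CPM in untreated cells, beside 7782 to 8082 CPM for the 8 adipocyte markers. None of the 4 markers of dividing cells was under the floor in every library. In bulk samples, fewer cells of a type and less RNA per cell cannot be told apart.

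Upstream sequences are shown for the 3 factors that were lower with the combination of palmitate and A66 (Rxra, Klf15 and Zfp423) and for Pparg and Cebpa, the central pair of the differentiation programme. Each run is the 250 bases before a RefSeq transcription start, 5′ to 3′ on the strand of the gene (GRCm38.p6). For Rxra it is chr2:27676951-27677200 (+), for Klf15 chr6:90462326-90462575 (+), for Zfp423 chr8:87959596-87959845 (-), for Cebpa chr7:35119043-35119292 (+), and for Pparg chr6:115421816-115422065 (+), an internal start of the gene. Capitals mark matches, on either strand, to the GC box GGGCGG, the CCAAT box CCAAT, the C/EBP core TTNNGCAA, the nuclear receptor hexamer AGGTCA, the STAT core TTCNNNGAA or the FOXO core GTAAACA.
Rxra: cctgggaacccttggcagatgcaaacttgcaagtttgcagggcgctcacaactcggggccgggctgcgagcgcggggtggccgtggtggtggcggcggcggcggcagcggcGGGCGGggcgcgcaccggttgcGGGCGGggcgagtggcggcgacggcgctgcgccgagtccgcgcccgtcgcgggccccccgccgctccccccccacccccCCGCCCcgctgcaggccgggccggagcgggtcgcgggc
Klf15: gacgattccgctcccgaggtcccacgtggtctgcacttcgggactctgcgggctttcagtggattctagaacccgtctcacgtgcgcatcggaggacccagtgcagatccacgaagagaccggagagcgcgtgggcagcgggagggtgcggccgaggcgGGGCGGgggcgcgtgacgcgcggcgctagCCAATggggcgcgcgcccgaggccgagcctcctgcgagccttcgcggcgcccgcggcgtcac
Zfp423: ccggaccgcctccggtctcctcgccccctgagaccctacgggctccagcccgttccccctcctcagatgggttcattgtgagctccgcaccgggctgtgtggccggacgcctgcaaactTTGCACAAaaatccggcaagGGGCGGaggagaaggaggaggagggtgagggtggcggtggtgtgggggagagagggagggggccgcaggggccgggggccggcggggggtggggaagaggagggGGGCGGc
Cebpa: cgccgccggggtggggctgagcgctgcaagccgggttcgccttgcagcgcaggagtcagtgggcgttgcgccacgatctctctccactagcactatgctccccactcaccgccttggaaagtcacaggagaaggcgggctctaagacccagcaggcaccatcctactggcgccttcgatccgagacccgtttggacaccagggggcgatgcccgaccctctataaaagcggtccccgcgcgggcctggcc
Pparg: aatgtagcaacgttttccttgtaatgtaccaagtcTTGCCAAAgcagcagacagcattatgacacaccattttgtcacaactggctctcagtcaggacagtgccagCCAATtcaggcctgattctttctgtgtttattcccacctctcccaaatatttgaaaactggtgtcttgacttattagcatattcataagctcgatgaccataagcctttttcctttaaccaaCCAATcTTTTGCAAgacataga
The Rxra window held 3 GC boxes, the Klf15 window 1 GC box and 1 CCAAT box, and the Zfp423 window 2 GC boxes and 1 C/EBP core. The Pparg window held 2 CCAAT boxes and 2 C/EBP cores, and the Cebpa window held no match to these letters. RefSeq gives further starts for 3 of these genes, whose windows were searched but are not printed. The other 2 Pparg windows held 1 hexamer each, with 1 GC box in one and 2 GC boxes and 1 CCAAT box in the other. The second Rxra window held 2 hexamers, and the second Zfp423 window 1 hexamer and 1 GC box. No capitals overlapped between motifs. Of 32851 windows of the same length across all genes, 32.7% held a GC box, 33.8% a CCAAT box, 9.56% a C/EBP core, 14.0% a nuclear receptor hexamer, 7.02% a STAT core and 3.17% a FOXO core. The CACCC box CACCC and the EBF core CCCNNGGG were searched too but not marked, and were held by 52.0% and 11.8% of windows. GC content was 81.2% for Rxra, 72.0% for Klf15, 71.6% for Zfp423, 66.4% for Cebpa and 40.8% for Pparg. A match describes the sequence and is not a measured binding site. Of the 10 factors, 8 had at least one window in the RefSeq table.

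The 10 factors spanned a wide range of transcript levels, which were compared between genes per exon length as RPKM, a scale made here by dividing CPM by kilobases of exon. Pparg was highest, with a median of 105 RPKM over the 8 libraries and a range from 99.1 to 109, and Rxra followed at 42.7 RPKM (35.8 to 46.5). Cebpa had a median of 25.1 RPKM, Klf15 of 19.6 and Ebf1 of 12.1. Stat5a at 8.69 RPKM and Zfp423 at 7.63 were the only neighbours in this order whose ranges over the 8 libraries overlapped. The early factors stood lowest on this scale. Cebpb had a median of 3.56 RPKM, Cebpd of 0.895 and Klf5 of 0.0670. With the longest transcript in place of all exonic bases as gene length, untreated levels became 147 RPKM for Pparg and 49.97 for Rxra, and Stat5a rose to 16.6 RPKM and Ebf1 to 19.6.

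**Figure D1:**
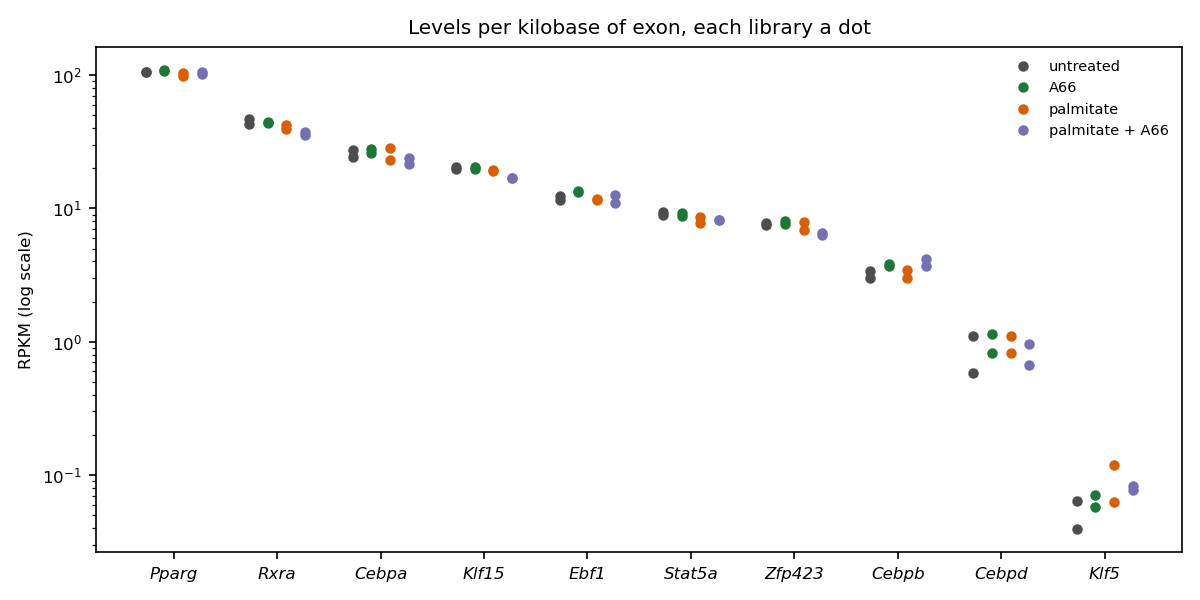
RPKM (log scale) of the 10 adipogenic transcription factors in each of the 8 libraries, ordered by median, with 1 dot per library coloured by group. Pparg lies highest at a median of 105 RPKM and Klf5 lowest at 0.0670.

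Expression of the individual factors is given below in TMM-scaled CPM, a scale on which 1 gene is compared between libraries. Pparg had 314 and 309.6 CPM in the untreated cultures, 323 and 314 under A66, 293 and 305 under palmitate, and 299.7 and 311 under both. These 8 values lie within a narrow band, and the palmitate cultures were the lowest on average. Cebpa, the partner of Pparg in mature adipocytes, had 64.1 and 72.8 CPM in untreated cells, 74.1 and 68.4 under A66, 61.0 and 74.9 under palmitate, and 56.7 and 62.5 under both. The untreated, A66 and palmitate values overlapped, and the replicates of the palmitate group were the farthest apart, with a mean of 68.0 ± 9.80 CPM (SD, n = 2). Both cultures with palmitate and A66 were below both untreated cultures.

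Rxra, the heterodimer partner, had 254 and 236 CPM in untreated cells, 243 and 239 under A66, 214 and 230.2 under palmitate, and 196 and 203 under both. The untreated and A66 values overlapped, those of palmitate were lower than either, and those of the combination were lowest. Klf15 had 55.3 and 57.1 CPM in untreated cells, 55.6 and 57.2 under A66, 53.3 and 54.2 under palmitate, and 47.1 and 46.9 under both. Replicates of Klf15 lay close together, and the combination stood apart from the 6 other libraries. Zfp423 had 43.9 and 42.4 CPM in untreated cells, 43.1 and 45.4 under A66, 38.5 and 44.1 under palmitate, and 35.2 and 36.6 under both. Here too both cultures of the combination were below all others, and 1 palmitate culture lay between them and the rest.

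The other lineage factor, Ebf1, had 122 and 112 CPM in untreated cells, 131 and 130.1 under A66, 112 and 114 under palmitate, and 108 and 123 under both. The A66 cultures were the highest and did not overlap with any other group. Stat5a had 63.7 and 67.6 CPM in untreated cells, 62.5 and 66.2 under A66, 55.4 and 61.6 under palmitate, and 58.6 and 58.7 under both. All 4 cultures with palmitate were below all 4 without it.

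The early factors had few counts. Cebpb had 4.50 and 5.10 CPM in untreated cells, 5.76 and 5.61 under A66, 4.49 and 5.18 under palmitate, and 5.52 and 6.32 under both, so that each culture with A66 was above each culture without it. Cebpd ranged from 2.17 to 4.29 CPM over the 8 libraries, and these ends were an untreated and an A66 culture. Its untreated replicates alone differed from 2.17 to 4.14 CPM. Klf5 ranged from 0.203 to 0.615 CPM, which is between 11 and 33 counts in a library. Part of the exonic sequence of 3 factors lies opposite a gene on the other strand, with 312 of 1504 bases of Cebpb opposite Tmem189, 562 of 3746 bases of Cebpd opposite Spidr and 72 of 7133 bases of Stat5a opposite Stat3. The libraries were stranded, but whether counting used the strand is not stated, so reads from these pairs cannot be told apart.

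**Figure D2:**
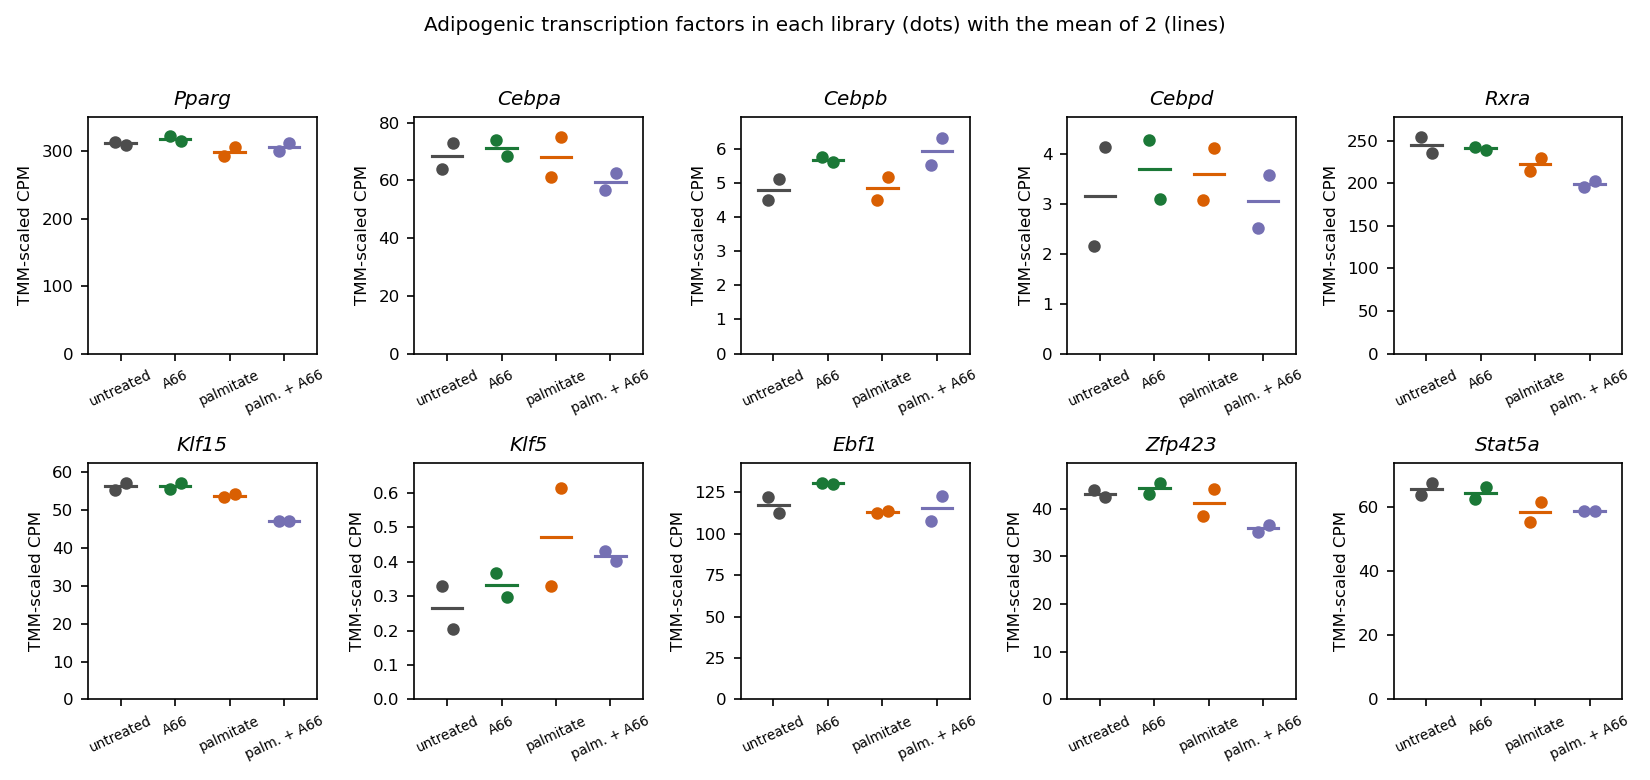
TMM-scaled CPM (vertical axes from 0) of each factor in the untreated, A66, palmitate and palmitate plus A66 groups, with 2 libraries per group as dots and their mean as a line. Klf15, Rxra and Zfp423 are lowest in both cultures with palmitate and A66, at 47.1 and 46.9 CPM for Klf15, whereas Pparg stays between 293 and 323 CPM.

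The effect of A66 alone was compared in the 4 libraries without palmitate. None of the 10 factors had an adjusted p under 0.05 in the quasi-likelihood test of edgeR (Benjamini-Hochberg over all 14158 genes tested), beside 1.84% of all genes, and DESeq2 also called 0. At an unadjusted p under 0.05 the test took 1 of the 10, Ebf1, beside 12.8% of all genes. Ebf1 averaged 117 ± 6.71 CPM in untreated cells and 130.5 ± 0.514 with A66 (SD, n = 2 each), which is a log2 difference of 0.16 (SE 0.04, edgeR adjusted p = 0.0729). With each library left out in turn this ranged from 0.10 to 0.22. Of 7 other settings, Ebf1 passed only without the filter on low counts (edgeR adjusted p = 0.0183). Pparg had a log2 fold change of 0.03, with a 95% interval from -0.05 to 0.11, and Cebpa one of 0.06 (-0.06 to 0.17). For Rxra the interval was -0.11 to 0.07, for Klf15 -0.10 to 0.11, for Zfp423 -0.08 to 0.15 and for Stat5a -0.13 to 0.08. The early factors were less certain, with log2 fold changes of 0.24 for Cebpb (SE 0.13), 0.21 for Cebpd (SE 0.22) and 0.35 for Klf5 (SE 0.53). With each library left out in turn, the value of Cebpd ranged from -0.16 to 0.78.

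Palmitate alone was compared with untreated cells in a fit on all 8 libraries. Again 0 of the 10 factors passed the edgeR threshold, beside 1.17% of 14587 genes, and DESeq2 called 0. At an unadjusted p under 0.05 there were 2 of 10, beside 12.0% of all genes, and both were lower with palmitate. Stat5a averaged 65.6 ± 2.73 CPM without and 58.5 ± 4.36 with palmitate (SD, n = 2 each), which is a log2 difference of -0.17 (SE 0.05, edgeR adjusted p = 0.150). With each library left out in turn, this difference ranged from -0.24 to -0.09. Rxra went from 245 ± 12.8 to 222 ± 11.2 CPM (SD, n = 2 each), which is a log2 difference of -0.14 (SE 0.05, edgeR adjusted p = 0.159). Pparg had a log2 fold change of -0.06 (95% interval -0.14 to 0.02), Klf15 of -0.07 (-0.16 to 0.03), Zfp423 of -0.07 (-0.19 to 0.06), Ebf1 of -0.05 (-0.16 to 0.06) and Cebpa of -0.01 (-0.17 to 0.14). The values of Cebpb (0.01, SE 0.13), Cebpd (0.16, SE 0.23) and Klf5 (0.84, SE 0.49) had wide intervals that all included 0.

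When A66 was given on top of palmitate, Klf15 was lower than with palmitate alone, and it was the only one of the 10 factors past the edgeR threshold (2.81% of all genes passed, 1.84% as lower). Klf15 fell by 12.5%, from 53.8 ± 0.682 to 47.0 ± 0.127 CPM (SD, n = 2 each), which is a log2 difference of -0.19 (SE 0.05, edgeR adjusted p = 0.0278). Both cultures of the combination were below both palmitate cultures. Such separation of 2 from 2 cultures describes the tested values and is no separate support, here and below. Its share over all genes is not given. The call was lost when either palmitate culture or either culture of the combination was left out (edgeR adjusted p of 0.0625, 0.187, 0.149 and 0.155), with log2 fold changes that remained between -0.21 and -0.18. Rxra had a log2 fold change of -0.16 (SE 0.05, edgeR adjusted p = 0.0695) and Zfp423 of -0.20 (SE 0.06, edgeR adjusted p = 0.0906), and for both genes the groups did not overlap. DESeq2 called Rxra as well (adjusted p = 0.0391). With each library left out in turn, the log2 fold changes ranged from -0.21 to -0.10 for Rxra and from -0.30 to -0.10 for Zfp423. Cebpa had a log2 fold change of -0.19 (SE 0.07, edgeR adjusted p = 0.213), and its groups overlapped. Its values ranged from -0.33 to -0.03 with each library left out. Cebpb had 0.29 (SE 0.13, edgeR adjusted p = 0.299), Cebpd -0.23 (SE 0.24) and Klf5 -0.17 (SE 0.45). Near 0 were Pparg at 0.03 (95% interval -0.05 to 0.12), Ebf1 at 0.03 (-0.08 to 0.14) and Stat5a at 0.01 (-0.11 to 0.12).

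When palmitate was given on top of A66, Rxra, Klf15 and Zfp423 were lower than with A66 alone, which is 3 of the 10 factors, beside 2.73% of 14587 genes called and 1.27% called as lower. Rxra fell by 17.3%, from 241 ± 2.70 to 199 ± 5.39 CPM (SD, n = 2 each), with a log2 fold change of -0.27 (SE 0.05, edgeR adjusted p = 0.000832). For Klf15 the level fell by 16.6%, from 56.4 ± 1.13 to 47.0 ± 0.127 CPM, with a log2 fold change of -0.26 (SE 0.05, edgeR adjusted p = 0.00234). Zfp423 fell by 18.8%, from 44.2 ± 1.60 to 35.9 ± 0.986 CPM, with a log2 fold change of -0.30 (SE 0.06, edgeR adjusted p = 0.00608). In all 3 genes both cultures of the combination were below both A66 cultures. With each library left out in turn, the calls of Rxra and Klf15 were kept, with edgeR adjusted p of at most 0.0324 and 0.0420, and that of Zfp423 was lost without A66 replicate 2 (0.0879) or palmitate plus A66 replicate 1 (0.105). Just outside the threshold were Cebpa, with a log2 fold change of -0.26 (SE 0.07, edgeR adjusted p = 0.0642), and Ebf1, with -0.18 (SE 0.05, edgeR adjusted p = 0.0717). With only the 4 libraries of the 2 groups in the fit, these passed as well (edgeR adjusted p of 0.00369 and 0.0324). Of 7 settings that kept all cultures of the comparison, Cebpa passed in 4 and Ebf1 in 3. With each library left out in turn, their log2 fold changes ranged from -0.33 to -0.19 and from -0.27 to -0.09. Stat5a had a log2 fold change of -0.13 (SE 0.05, edgeR adjusted p = 0.229) and Pparg of -0.06 (95% interval -0.14 to 0.02). The values of Cebpb (0.06, SE 0.13), Cebpd (-0.28, SE 0.24) and Klf5 (0.32, SE 0.48) had 95% intervals that included 0.

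**Figure D3:**
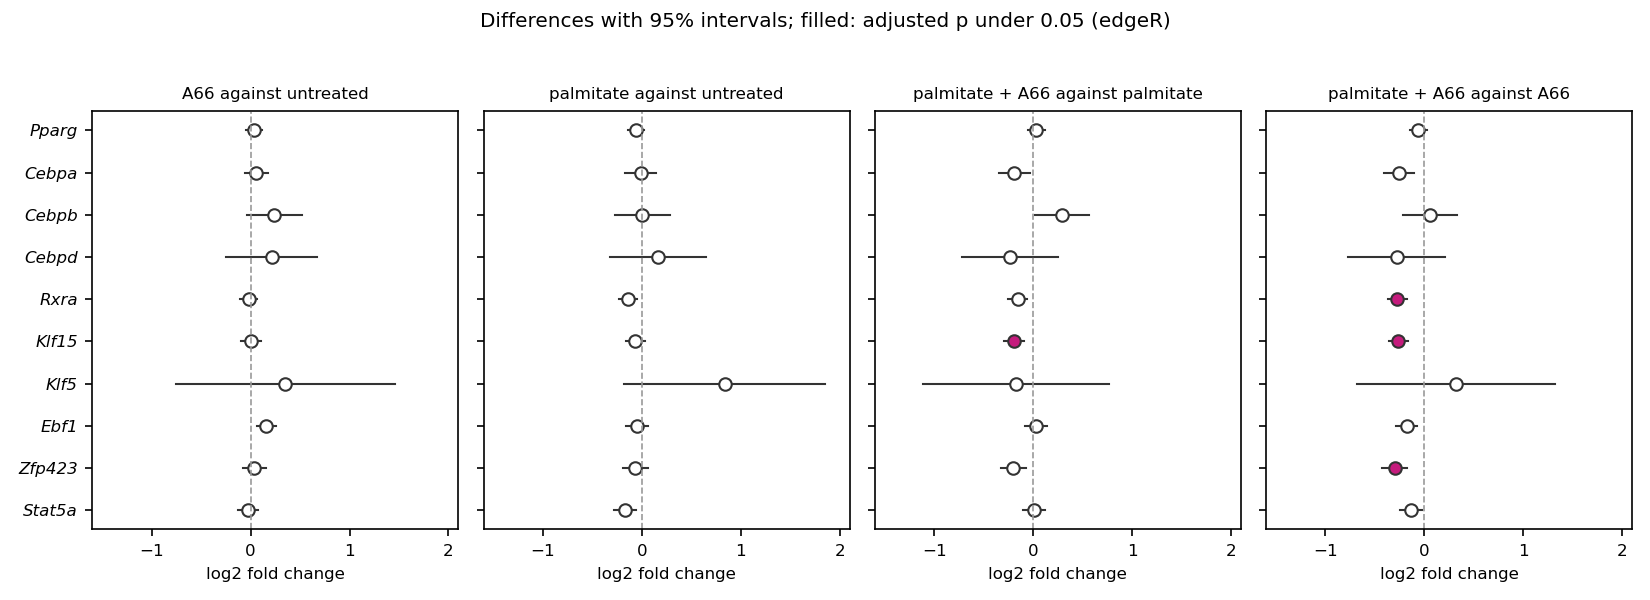
Log2 fold changes (dots) with 95% intervals (lines) of the 10 factors in 4 comparisons, filled where the edgeR adjusted p was under 0.05. Filled dots are Klf15 at -0.19 for palmitate plus A66 against palmitate, and Rxra, Klf15 and Zfp423 at -0.27, -0.26 and -0.30 for palmitate plus A66 against A66.

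Palmitate plus A66 was also set against untreated cells, a comparison added after the values had been seen. It shares the combination libraries with the 2 comparisons above. Here 3 of 10 factors passed, beside 7.50% of all genes and 3.71% called as lower. They were Rxra at -0.30 (SE 0.05, edgeR adjusted p = 0.000172), Klf15 at -0.26 (SE 0.05, edgeR adjusted p = 0.00136) and Zfp423 at -0.27 (SE 0.06, edgeR adjusted p = 0.00898), all log2 fold changes. Relative to untreated cells Rxra fell by 18.6%, Klf15 by 16.4% and Zfp423 by 16.8%. The call of Zfp423 was lost without untreated replicate 1 (0.0736) or palmitate plus A66 replicate 1 (0.105). Cebpa had -0.20 (SE 0.07, edgeR adjusted p = 0.107) and Stat5a -0.16 (SE 0.05, edgeR adjusted p = 0.0676).

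Whether the effect of A66 differed with and without palmitate was tested as an interaction. None of the 10 factors passed the edgeR threshold, beside 1 gene (0.00686%) of 14587, and DESeq2 called 0 of the 10. At an unadjusted p under 0.05 there were 3 of 10 (7.92% of all genes). These were Klf15, with an interaction of -0.20 (95% interval -0.34 to -0.06, edgeR adjusted p = 0.472), Zfp423, with -0.24 (-0.41 to -0.06, edgeR adjusted p = 0.494), and Cebpa, with -0.24 (-0.46 to -0.03, edgeR adjusted p = 0.585), all log2 values. The interaction of Rxra was -0.13 (-0.27 to 0.00117, edgeR adjusted p = 0.633). A difference in the response to A66 between cells with and without palmitate was therefore not shown for any of the factors.

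The summed level of the 8 adipocyte markers, which was not tested, was 7782 to 8082 CPM in untreated cells, 8097 to 8576 with A66, 7228 to 7863 with palmitate and 6932 to 7637 with the combination. Both A66 sums lay above both untreated sums, and both sums with the combination lay below both untreated sums. Palmitate overlapped with untreated cells and with the combination. EdgeR called 2.73% of all genes between the combination and A66, 2.81% with A66 added to palmitate, and 7.50% with the combination against untreated cells. By edgeR none of the 8 passed with A66 or palmitate alone, where 6 and 2 had an unadjusted p under 0.05 (12.8% and 12.0% of all genes), and 6 were lower with the combination than with A66 (Adipoq, Cfd, Cidec, Plin1, Retn and Slc2a4), of which only Retn passed without A66 replicate 1 or without palmitate plus A66 replicate 1. With A66 on top of palmitate 3 were lower (Retn, Slc2a4 and Cidec), and against untreated cells 4 were lower with the combination (Cidec, Retn, Slc2a4 and Plin1), of which Plin1 did not pass in DESeq2 (adjusted p = 0.140) nor without either untreated culture (0.0772 and 0.0955) or palmitate plus A66 replicate 1 (0.307). The 12 pre-adipocyte and fibroblast markers summed to 7631 to 8060, 8028 to 8133, 8060 to 8513 and 7816 to 7955 CPM in the same order of groups. Among the 11 tested, Col1a1 and Postn were higher with palmitate (0.25, SE 0.04, and 0.32, SE 0.06) and lower with A66 on top of it (-0.33, SE 0.04, and -0.36, SE 0.06), and the first of these calls of Postn was lost without untreated replicate 2 (edgeR adjusted p = 0.0675). Acta2 was higher with A66 (0.23, SE 0.06) and with A66 on top of palmitate (0.35, SE 0.09), but DESeq2 called neither (adjusted p of 0.531 and 0.426), and the calls were lost without A66 replicate 2 (0.623), and without palmitate replicate 2 (0.370) or palmitate plus A66 replicate 1 (0.506). Against untreated cells Fn1 (0.15, SE 0.05) and Ly6a (0.41, SE 0.10) were higher with the combination, calls lost without untreated replicate 1 or palmitate plus A66 replicate 1 for Ly6a (0.171 and 0.307) and without any 1 untreated, A66 or combination culture for Fn1 (0.0567 to 0.258). None of the 11 passed between the combination and A66, where 3 had an unadjusted p under 0.05 and 14.6% of all genes did. Of the 6 macrophage markers, summing to 5.8 to 6.7 CPM in untreated cells, 5.9 to 6.6 with A66, 7.5 to 7.9 with palmitate and 7.8 to 8.8 with both, only Cd68 passed the test, higher at a log2 fold change of 0.91 (SE 0.16, edgeR adjusted p = 0.0014, and 0.0678 without A66 replicate 1) with the combination than with A66, while Adgre1 and Ptprc stayed under the floor. Against untreated cells 1 macrophage marker also passed as higher with the combination, at a log2 fold change of 0.88. The part of cell composition in the differences of Rxra, Klf15 and Zfp423 was not tested.

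Genes known as targets of PPARγ and C/EBPα in mature adipocytes formed a list of 30, which holds all 8 adipocyte markers, so that 6 of the lower calls given next are those named above. When palmitate was added to A66, 16 of them were lower and 1 was higher by edgeR, beside 2.73% of all genes called and 1.27% called as lower. The median log2 fold change was -0.19 over the 30, beside 0.00 over all genes. The lower genes included Acsl1, which activates long-chain fatty acids (-0.44, SE 0.05), Pck1 of glyceroneogenesis (-0.56, SE 0.11), the hormone gene Adipoq (-0.24, SE 0.05) and the insulin-responsive glucose transporter Slc2a4 (-0.22, SE 0.05). Plin2, a lipid droplet coat protein, was the 1 that rose (0.21, SE 0.04). These genes were chosen after their values had been seen. Acsl1 had 1747 and 1665 CPM in untreated cells, 1489 and 1405 under A66, 1385 and 1483 under palmitate, and 1036 and 1098 under both, so that both single treatments lay between the untreated and the combined cultures without overlap. The number of calls rested on 2 libraries. It fell from 17 to 2 without A66 replicate 1 and to 3 without palmitate plus A66 replicate 1. DESeq2 did not call Pck1, Cfd and Cidec (adjusted p of 0.210, 0.229 and 0.0794).

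In the other comparisons edgeR called 1.84% of all genes with A66 alone, 1.17% with palmitate alone and 2.81% with A66 on top of palmitate. The combination against untreated cells had 7.50% called, 3.71% as lower, and the interaction 7.92% at an unadjusted p under 0.05. The counts of the 30 targets in these comparisons were not tested against the one above. With A66 alone 2 were lower (Acsl1 at -0.23 and the droplet protein gene Plin4 at -0.18) and 2 higher (the glycerol channel Aqp7 at 0.24 and the receptor gene Hcar2 at 0.37), with a median of 0.01 over 29 tested. Only 1 call was left without either A66 culture, and 9 genes were called without untreated replicate 2. With all 8 libraries in the fit 1 was called, and without the filter on low counts 8. With palmitate alone 3 were lower, Acsl1 (-0.25), the lipases Pnpla2 (-0.25) and Lpl (-0.19), with a median of -0.10, and no call was left without untreated replicate 1 or palmitate replicate 1, against 10 without palmitate replicate 2, 8 without the filter on low counts and 5 with library size scaling. A66 on top of palmitate lowered 4 (Acsl1 at -0.43, Retn at -0.32, Slc2a4 and Cidec at -0.23), with a median of -0.09, and 11 were called without palmitate replicate 1, 13 without the filter on low counts and 7 with library size scaling. Cidec did not pass in DESeq2 (adjusted p = 0.317) or with only the 4 libraries of the comparison (0.0534), and neither Cidec nor Slc2a4 passed without palmitate replicate 2 (0.532 and 0.201) or palmitate plus A66 replicate 1 (0.376 and 0.122). Against untreated cells the combination had 13 lower and 1 higher, 9 calls in all without palmitate plus A66 replicate 1. None of the 30 passed in the interaction, where 6 had an unadjusted p under 0.05, and 4 were called without the filter on low counts and 1 without palmitate replicate 1.

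**Figure D4:**
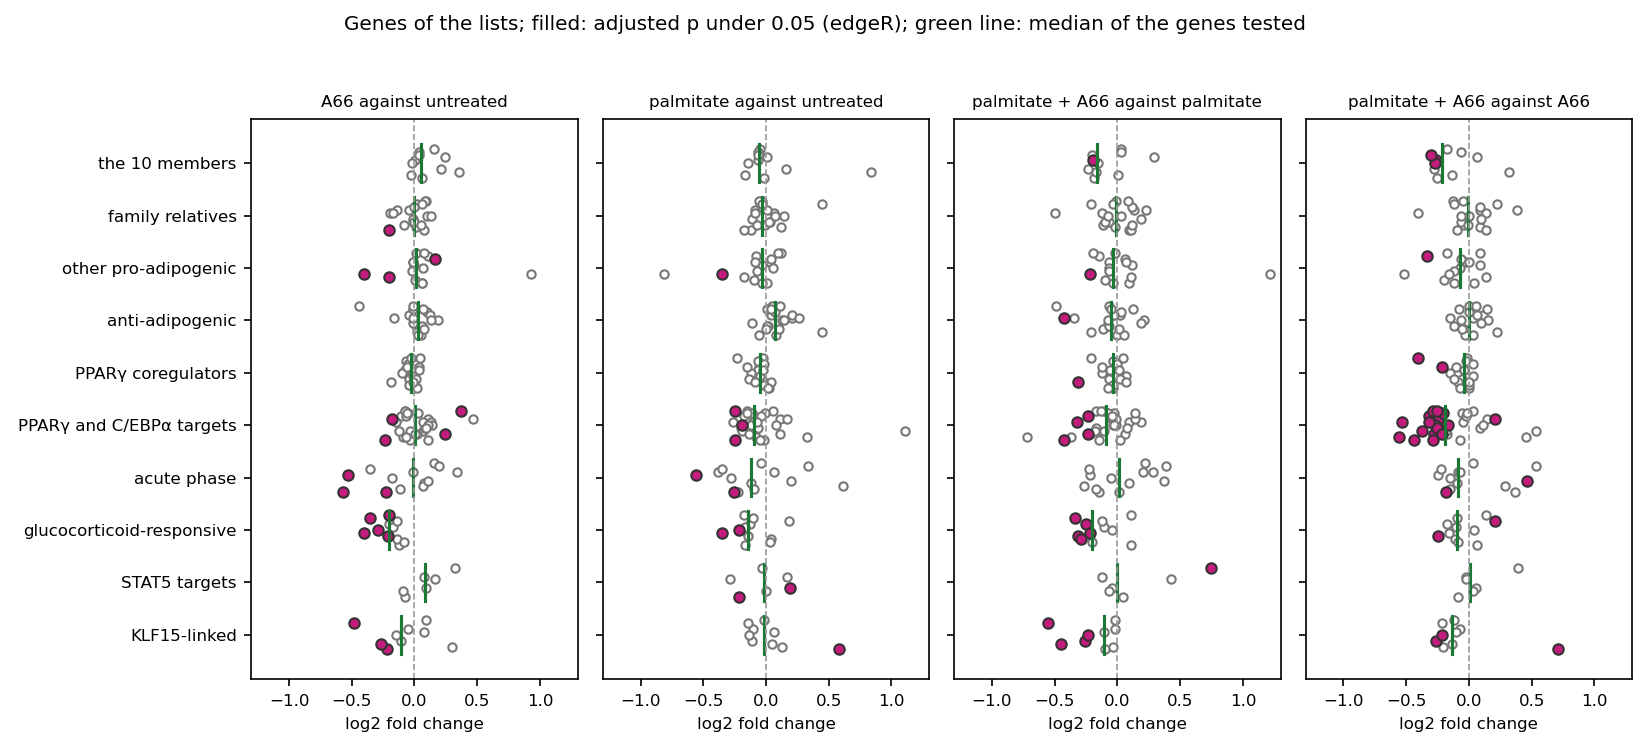
Log2 fold changes of the tested genes of each list in 4 comparisons, with 1 dot per gene, filled where the edgeR adjusted p was under 0.05, and a green line at the median of the list. The targets of PPARγ and C/EBPα lie mostly below 0 with palmitate plus A66 against A66 (median -0.19, 16 lower and 1 higher).

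Of the relatives of the factors within their families, 19 of 21 were tested. Among them, including Ppara, Rxrb, Stat5b and Ebf2, only Klf9 passed with A66 (log2 fold change -0.20, SE 0.05, edgeR adjusted p = 0.0479), and it did not pass in DESeq2 (adjusted p = 0.112) nor without untreated replicate 2 (0.174), A66 replicate 1 (0.242) or A66 replicate 2 (0.365). None passed by edgeR or DESeq2 in the other comparisons, where 2 had an unadjusted p under 0.05 with palmitate (12.0% of all genes), 7 with A66 on top of palmitate (14.4%), 2 with the combination against A66 (14.6%), 2 against untreated cells (20.8%) and 3 in the interaction (7.92%). Without palmitate replicate 1, Klf6 and Klf7 passed with A66 on top of palmitate. The largest difference, picked after the values had been seen, was that of Rxrg, a further RXR gene, at 2.13 ± 0.363 CPM with the combination against 3.22 ± 0.547 CPM in untreated cells (SD, n = 2 each), with a log2 fold change of -0.58 (SE 0.20, edgeR adjusted p = 0.0749, and 0.0247 without the filter on low counts). Among 15 tested of 18 other regulators that favour adipogenesis, the zinc finger gene Zbtb16 was lower with A66 (-0.40, SE 0.06, edgeR adjusted p = 0.000347), with palmitate (-0.35, SE 0.06, edgeR adjusted p = 0.00145) and with A66 on top of palmitate (-0.22, SE 0.06, edgeR adjusted p = 0.0456). The last of these calls was lost in DESeq2 (adjusted p = 0.0605) and without either A66 culture (0.0601 and 0.0586), palmitate replicate 2 (0.383) or either culture of the combination (0.205 and 0.173), and the call with palmitate without untreated replicate 1 (0.0532) or palmitate replicate 1 (0.0560). Zbtb16 had 54.1 and 48.8 CPM in untreated cells, 39.4 and 38.3 under A66, 38.9 and 41.8 under palmitate, and 34.6 and 34.8 under both. The combination was lowest and the untreated cultures highest. The glucocorticoid receptor gene Nr3c1 was higher with A66 (0.16, SE 0.04, edgeR adjusted p = 0.0323), a call lost without either A66 culture (0.233 and 0.327). Nfia, which acts with PPARγ at adipocyte enhancers, was lower with the combination than with A66 (-0.33, SE 0.05, edgeR adjusted p = 0.000565), and without A66 replicate 1 its adjusted p was 0.0515.

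Of 17 coregulators of PPARγ tested, none passed with A66 or palmitate alone, beside 1.84% and 1.17% of all genes. With the combination, edgeR called 2.81% of all genes against palmitate, 2.73% against A66 and 7.50% against untreated cells. The coactivator gene Ppargc1b (-0.41, SE 0.08, edgeR adjusted p = 0.00314) and the corepressor gene Nrip1 (-0.21, SE 0.05, edgeR adjusted p = 0.00856) were lower with the combination than with A66. Neither passed without A66 replicate 1 (0.0811 and 0.159), and Nrip1 did not without palmitate plus A66 replicate 1 (0.276). Helz2 was lower with the combination than with palmitate (-0.31, SE 0.07, edgeR adjusted p = 0.0137), without a call when palmitate replicate 2 or palmitate plus A66 replicate 2 was left out (0.204 and 0.146). Against untreated cells the combination had 4 lower, namely Ppargc1b, Nrip1, Ncoa1 and Helz2, the last without a call when untreated replicate 1 or palmitate plus A66 replicate 2 was left out (edgeR adjusted p of 0.277 and 0.143). Of 19 tested regulators that oppose adipogenesis, Twist1 passed as lower with A66 on top of palmitate (-0.43, SE 0.09, edgeR adjusted p = 0.00804), a call lost without palmitate replicate 2 (0.0783) or palmitate plus A66 replicate 1 (0.101). Id3 passed as higher with the combination against untreated cells (0.34, SE 0.09, edgeR adjusted p = 0.0172), a call lost without untreated replicate 1 (0.257) and without either culture of the combination (0.0809 and 0.0970).

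Genes that respond to glucocorticoids were lower in part. Dexamethasone in the induction mixture is a glucocorticoid, but by the methods it had been left out before the treatment. With A66, 5 of 11 passed as lower (Zbtb16, Mt2, Per1, Fkbp5 and Klf9, the last with the losses given above), beside 1.84% of all genes called, and all 11 had negative log2 fold changes, with a median of -0.20. Without A66 replicate 1 or replicate 2, 2 and 3 calls were left. With palmitate 2 were lower (Zbtb16 and Per1), and with A66 on top of palmitate 5 were lower (Fkbp5, Mt1, Mt2, Errfi1 and Zbtb16, beside 2.81% of all genes called), with a median of -0.20. The call of Per1 with palmitate passed in 1 of 8 fits that left out a library, with edgeR adjusted p up to 0.465, and that of Errfi1 in 4 of 8, up to 0.254. With the combination against A66, Fkbp5 was lower (-0.25, SE 0.05) and Tsc22d3 higher (0.20, SE 0.05), calls lost without palmitate plus A66 replicate 1 (edgeR adjusted p of 0.0979 and 0.223), and for Tsc22d3 also without the other culture of the combination or either A66 culture (0.0571, 0.323 and 0.0675). Against untreated cells the combination had 7 of 11 lower, beside 3.71% of all genes called as lower. Of 13 tested genes of the acute phase response, which C/EBPβ and C/EBPδ are known to drive, 3 were lower with A66 (Hp, C3 and Serpina3n) and 2 with palmitate (Hp and C3). EdgeR called 1.84% of all genes with A66, 1.17% with palmitate, 2.73% with the combination against A66 and 7.50% against untreated cells. With A66 the call of C3 was lost without A66 replicate 2 (edgeR adjusted p = 0.0956) and that of Serpina3n without A66 replicate 1 (0.0704). None passed by edgeR with A66 on top of palmitate, where 5 had an unadjusted p under 0.05, beside 14.4% of all genes, and DESeq2 called 1. With the combination against A66, C3 was lower (-0.18, SE 0.04) and the cyclooxygenase gene Ptgs2 higher (0.47, SE 0.12), both calls lost without A66 replicate 1 or palmitate plus A66 replicate 1, and that of Ptgs2 without A66 replicate 2. Against untreated cells the combination had 5 lower and 2 higher (Ptgs2 at 0.57, SE 0.12, and Lcn2 at 0.72, SE 0.19), 3 calls in all without untreated replicate 1 or palmitate plus A66 replicate 1. Hp, the haptoglobin gene, had 145 and 168 CPM in untreated cells, 107 and 109.7 under A66, 96.2 and 117 under palmitate, and 96.6 and 86.3 under both. Its log2 fold changes were -0.53 (SE 0.05, edgeR adjusted p = 3.1e-06) with A66 and -0.56 (SE 0.07, edgeR adjusted p = 5.08e-05) with palmitate.

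Genes linked to KLF15, mainly of amino acid breakdown, were a list of 9. Of all genes, edgeR called 1.84% with A66 alone, 2.81% with A66 on top of palmitate and 2.73% with palmitate on top of A66. With A66 alone, in which Klf15 itself did not differ, 3 were lower, the proline oxidase gene Prodh (-0.48, SE 0.09), the alanine transaminase gene Gpt (-0.26, SE 0.07) and the acetyl-CoA synthetase gene Acss2 (-0.22, SE 0.05), a direction that rests on the group labels, and DESeq2 called 0 of the 9, giving Prodh no adjusted p. Without A66 replicate 2 only Prodh passed, and Acss2 was also lost without A66 replicate 1 or untreated replicate 2 (edgeR adjusted p of 0.0704 and 0.146). A66 on top of palmitate lowered 4, Prodh (-0.55, SE 0.09), Gpt (-0.45, SE 0.09), the branched-chain transaminase gene Bcat2 (-0.26, SE 0.04) and Slc2a4, and 2 calls were left without palmitate replicate 2 or palmitate plus A66 replicate 1. Palmitate on top of A66 lowered 2 (Bcat2 and Slc2a4) and raised Acss2 (0.71, SE 0.06). Acss2 had 56.2 and 61.2 CPM in untreated cells, 51.8 and 48.7 under A66, 91.1 and 85.0 under palmitate, and 85.8 and 78.9 under both, and thus was higher in every culture with palmitate. Of 6 STAT5 target genes, none passed with A66. With palmitate Igf1 was higher (0.19, SE 0.04, edgeR adjusted p = 0.0221) and the repressor gene Bcl6 lower (-0.21, SE 0.05, edgeR adjusted p = 0.0284), and both calls were lost without either palmitate culture or untreated replicate 2, Bcl6 also without untreated replicate 1 (edgeR adjusted p from 0.0531 to 0.204). The kinase gene Pim1 was higher with A66 on top of palmitate (0.74, SE 0.12, edgeR adjusted p = 0.00102).

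Genes with the profile most like a factor were sought among 8956 genes with a mean of at least 10 CPM, by the root mean square difference of log2 CPM over the 8 libraries, each gene centred on its untreated mean. The rule took factors whose group means spanned at least 0.5 on the log2 scale, which was Klf5 alone (0.71), and at its low counts the nearest genes, Mrpl52, Dpysl2 and Mlana, were still 0.338 to 0.352 away. For the 3 factors that were lower with the combination the search was added after the values had been seen. Nearest to Rxra were the thyroid hormone receptor gene Thra (0.026), the glycerol-3-phosphate dehydrogenase gene Gpd1 (0.028), itself one of the 30 targets, and Phka2 (0.031). For Klf15 they were Zfp715 (0.038), Ywhab (0.044) and Celf2 (0.046), and for Zfp423 Parp16 (0.046), the growth factor receptor gene Fgfr1 (0.047) and Ndufb3 (0.048).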

How the data were processed

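Poly(A) RNA of the 8 cultures, described as 2 biological repeats per condition, was sequenced as paired-end reads of 100 bases. Alignment was to GRCm38 with TopHat 2.0.11, and the authors deposited unnormalized HTSeq counts for each Ensembl gene. The strand setting and the annotation release are not given in the sources used here. The table also holds a DESeq2 comparison by the authors (mean of normalized counts, log2 fold change, standard error, statistic, p-value and adjusted p-value), which was not used. The 10 factors and all gene lists were chosen with earlier results of these data known. Symbols, positions and exon lengths came from GENCODE M21, in which 42462 of 43629 genes matched, and Mkl1 of the coregulator list had no match.

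Groups followed the sample labels. Tests used edgeR 4.0.16 in R 4.3.3 (TMM, filterByExpr with a minimum count of 10, quasi-likelihood F test, Benjamini-Hochberg over all genes tested, threshold 0.05). The A66 comparison used only its own 4 libraries and all others used 8. All 10 factors passed the filter. Standard errors were derived from the F statistic, with 95% intervals from the t distribution. CPM was scaled with TMM, and RPKM divided it by exonic kilobases. Besides the 10 factors, the rule for named genes took from each list the 2 genes with the smallest p in each direction, with A66 and with palmitate. The alternatives were RLE and library size scaling, DESeq2 1.42.0, other filters, other libraries in the fit, a replicate block and leaving out each library. The scripts were tested on simulated data. Upstream sequences came from RefSeq.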

Additional observations from a re-analysis of the deposited data

How the results depend on the processing

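Scaling by library size alone gave 3, 5 and 5 factors called for palmitate plus A66 against palmitate, against A66 and against untreated cells, and without the filter on low counts 4, 5 and 5, with 1 (Ebf1) for A66 alone. DESeq2 called 2 against palmitate, and with only the 4 libraries of the comparison 5 factors and 689 genes were called against A66. Without the filter, all genes called numbered 459 for A66, 396 for palmitate, 652 and 664 for the combination against palmitate and against A66, and 91 for the interaction, for which library size scaling gave 2 and DESeq2 8. Library size scaling also moved the split of higher and lower genes, from 152 and 109 to 126 and 154 for A66, from 142 and 268 to 107 and 350 for the combination against palmitate, from 213 and 185 to 180 and 266 against A66, and from 553 and 541 to 367 and 859 against untreated cells. Pairing by replicate number was not detected (correlations of same-numbered deviations from -0.147 to 0.153 over 8956 genes). With 1 replicate difference per group, this check cannot decide whether cultures were handled in pairs. With a replicate block 4 factors were called for the combination against A66 and 4 against untreated cells, 1 against palmitate and 0 with A66 or palmitate alone, 5 in place of 3 of the PPARγ and C/EBPα targets with palmitate, and 3 genes in the interaction, and Klf9 with A66 had an edgeR adjusted p of 0.0536.

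Leaving out each library in turn gave 0 to 1 factors called for A66, 0 to 1 for palmitate, 0 to 3 for the combination against palmitate, 2 to 5 against A66 and 2 to 5 against untreated cells. All genes called then ranged from 98 to 635, 71 to 245, 147 to 494, 107 to 502 and 437 to 1236 in the same order, and from 0 to 10 for the interaction. Only values of uncalled factors changed sign, and the cause was not tested. For A66 the log2 fold changes ranged from -0.028 to 0.16 for Cebpa, -0.16 to 0.78 for Cebpd, -0.070 to 0.032 for Rxra, -0.017 to 0.032 for Klf15 and -0.069 to 0.019 for Stat5a. With palmitate they ranged from -0.17 to 0.13 for Cebpa, -0.10 to 0.11 for Cebpb, -0.21 to 0.73 for Cebpd, -0.11 to 0.0085 for Ebf1 and -0.16 to 0.030 for Zfp423. For the combination against palmitate the ranges were -0.51 to 0.0016 for Cebpd, -0.56 to 0.34 for Klf5, -0.068 to 0.12 for Ebf1 and -0.070 to 0.083 for Stat5a, and against A66 -0.041 to 0.15 for Cebpb. Library size scaling gave -0.010 for Klf15 with A66, -0.0055 for Cebpb with palmitate and -0.014 for Stat5a for the combination against palmitate.

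With the longest transcript as gene length, untreated levels were 147 RPKM for Pparg, 49.97 for Rxra, 22.7 for Klf15, 0.0795 for Klf5, 19.6 for Ebf1, 8.80 for Zfp423 and 16.6 for Stat5a, as fewer bases are counted. With 2 libraries per group the spread rests on pooling across genes, and Klf5, at 11 to 33 counts, had a log2 fold change of 0.84 (SE 0.49) with palmitate that did not pass the test.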
